A study of Mus musculus with 6 samples.

Results

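Genes for splicing factors and RNA helicases were compared in white fat of the epididymis, a visceral depot, between mice deprived of food for 24 h and mice fed normally. The genes were taken by symbol: all whose name starts with Srsf, Sf3, Hnrnp, Snrp, Prpf, Rbm, Ddx or Dhx, leaving out Snrpn. Of the 3162 genes held, 20 carry such a name, against 164 protein-coding genes so named in the GRCm38 annotation. Both groups were male wild-type C57BL/6J mice of 16 weeks, and 3 fasted and 3 fed mice gave 1 library each. The 20 genes were 8 Rbm, 4 Ddx, 3 Dhx, 2 Srsf, 2 Prpf and 1 Snrp genes. No Sf3 or Hnrnp gene was held (0 of each), and genes not held were not analysed here.

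Introns are removed from pre-mRNA by the spliceosome, which assembles on each intron from small nuclear ribonucleoprotein particles (snRNPs). The U1 snRNP pairs with the 5′ splice site and the U2 snRNP with the branch point, and SR proteins, rich in serine and arginine, help to bring both to exons. DEAD-box (Ddx) and DEAH-box (Dhx) proteins use ATP to remodel RNA and its protein complexes in splicing, export, translation, ribosome assembly and antiviral sensing, so a shared family name does not mean a shared pathway. In fat and muscle cells, SR proteins have been tied to insulin-dependent splicing, in particular of the protein kinase C beta transcript.

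Expression was given as FPKM, read fragments per gene divided by gene length and by the total mapped in that library. The genes held had been chosen on these libraries: in 93.4% of all 3162 the fasted and fed values did not overlap, and few group means were alike. Log2 ratios of means between 0 and 0.4 were found in 2 genes and between -0.2 and 0 in 7. Summed FPKM over the genes held was 180058 to 188061 in the fasted and 190382 to 209201 in the fed libraries. The 7 adipocyte markers held of 18 listed fell, with sums of 3344 to 3929 FPKM in fasted and 6067 to 7241 FPKM in fed libraries. Retn made up most of these sums, at 2670 to 2895 FPKM in fasted and 3761 to 4786 FPKM in fed libraries. The 4 endothelial markers held of 11 rose (283 to 414 FPKM in fasted, 176 to 217 FPKM in fed libraries). Of the 5 stromal markers held of 12, 3 rose and 2, both collagen genes, fell. The 5 summed to 1270 to 1872 FPKM in fasted and 811 to 1085 FPKM in fed libraries. Dcn was the largest part, at 831 to 1403 FPKM in fasted and 391 to 627 FPKM in fed libraries. Of all genes tested with limma (below), 41.1% were called higher and 49.4% lower. Of macrophage markers 1 of 13 was held and fell (2.12 to 3.86 FPKM in fasted, 4.55 to 8.38 FPKM in fed libraries). Of lymphocyte markers 1 of 12 was held, at 0.89 to 0.98 FPKM in fasted and 0.15 to 0.23 FPKM in fed libraries. No marker of mesothelium or epididymal epithelium was held (0 of 9 and 0 of 10), and no marker held was at 0 in any library. The part of cell makeup in the changes below was not tested. In such bulk tissue, fewer cells of a type and less RNA per cell cannot be told apart.

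Sequence upstream of the start site is shown for Prpf39 and Prpf40b, which rose together and encode U1-associated proteins, and for Srsf5, the most abundant of the 20 genes. The sequences are from RefSeq (GRCm38.p6), on the plus strand, cut to the longest stretch of the 250 upstream bases that overlaps no annotated exon. Capitals mark the E-box CACGTG in the Prpf genes and the ETS motif CCGGAAG, on either strand, in Srsf5. A window was shown only if it held CACGTG or CCGGAAG, so finding a motif in each sequence shown is no result.
Prpf39, chr12:65036084-65036332: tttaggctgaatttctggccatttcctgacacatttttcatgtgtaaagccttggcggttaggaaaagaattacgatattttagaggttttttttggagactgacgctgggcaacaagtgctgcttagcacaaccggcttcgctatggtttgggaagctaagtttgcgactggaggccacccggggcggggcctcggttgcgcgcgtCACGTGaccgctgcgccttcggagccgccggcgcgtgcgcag
Prpf40b, chr15:99294991-99295086: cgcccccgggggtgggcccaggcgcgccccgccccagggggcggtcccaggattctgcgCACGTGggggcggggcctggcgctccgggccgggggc
Srsf5, chr12:80945397-80945498: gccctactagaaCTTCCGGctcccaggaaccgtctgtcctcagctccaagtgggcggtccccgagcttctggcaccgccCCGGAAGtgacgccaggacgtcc
Counted from the RefSeq start site, the E-box began 43 bases upstream in Prpf39 and 191 bases upstream in Prpf40b. In Prpf40b that site lies 154 bases past the end of the stretch shown. It is inside the annotated gene, which starts right after the stretch, at 99295087, so the E-box is nearer to the annotated start. The ETS motifs of Srsf5 began 90 and 23 bases upstream.

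All 20 genes had an upstream window in RefSeq, 27 windows in all. CACGTG, a palindrome, stood in the 250 upstream bases of 3 of them (15%), Prpf39, Prpf40b and Ddx42 (in 1 of its 2 windows), against 6.86% of 27025 genes with a window. CCGGAAG on either strand stood in 5 (25.0%), Srsf5, Srsf7, Ddx39b, Dhx36 and Snrpc, against 7.83% of all genes. The GC box GGGCGG was in 12 (60%, against 35.4%), CCAAT in 7 (35.0%, against 37.5%) and TATAAA in 2 (10%, against 14.3%). The cAMP response element TGACGTCA was in 1, Dhx36 (5.0%, against 1.77%) and GTAAACA, bound by FOXO factors, in 1, Dhx32 (5.0%, against 3.54%). Both strands were searched for each motif and matches to different motifs could overlap. The motifs were chosen with the expression values known, and the shares are descriptions without a test. The comparison took all genes with a window, whether held or not. Shares over the genes held were not taken, so these differences may not be particular to the 20.

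Of the 20 genes, 12 rose in fasted tissue, 6 fell and 2 did not pass (limma on log2(FPKM + 1), adjusted p under 0.05 over all 2999 genes tested). Among all tested genes 90.5% passed, 41.1% as higher and 49.4% as lower, so the share of rises was 60% in the 20 genes and the share of falls 30.0%. Fasted and fed values did not overlap in any of the 20 (20 of 20, against 93.4% of tested genes). The median log2 fold change of the 20 was 0.43, against -0.34 over all tested genes. As few genes held lie near 0, each median sits on the side with more genes and adds little to these counts. The rises were modest, from 0.40 to 0.88 on the log2 scale. Their median was 0.57, against a median of 0.79 for all 1232 genes that rose. As deposited and with all libraries, FPKM + 1 doubled in none of the 20 (0 at a log2 fold change of 1 or more). Prpf40b reached 1.07 with median-ratio scaling and 1.07 without fasted replicate 3. The falls had a median of -0.69, against -0.64 for all 1482 genes that fell. In 2 genes, Rbm28 and Dhx32, FPKM + 1 fell by more than 1 on the log2 scale.

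Scaling moves these values. Both scalings were computed over the genes held, most of which differed between the groups, so neither can be taken as the right level. Median-ratio factors were 0.911 to 0.953 for fasted and 1.03 to 1.14 for fed libraries. Dividing by them raises every fasted value against the fed ones, which favours rises over falls. Median-ratio scaling brought the median over all tested genes to -0.15 and quantile scaling to -0.21, and the median of the 20 genes to 0.62 and 0.54. The number of the 20 that rose was 12 with median-ratio scaling, where 41.2% of tested genes were higher, and 12 with quantile scaling, where 40.2% were. The number that fell was 3 with median-ratio scaling, where 26.2% of tested genes were lower, and 5 with quantile scaling, where 38.9% were. When genes not held were given a p of 1 and the adjustment ran over all protein-coding genes, limma called 0 of the 20 higher, against 18.6% of tested genes, and 3 lower (Rbm28, Dhx32 and Rbm47), against 16.5%. All 12 rises had an unadjusted p under 0.05. With the adjustment over all annotated genes, 0 were higher by limma, against 5.74% of tested genes, and 2 lower (Rbm28 and Dhx32), against 6.4%.

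**Figure D1:**
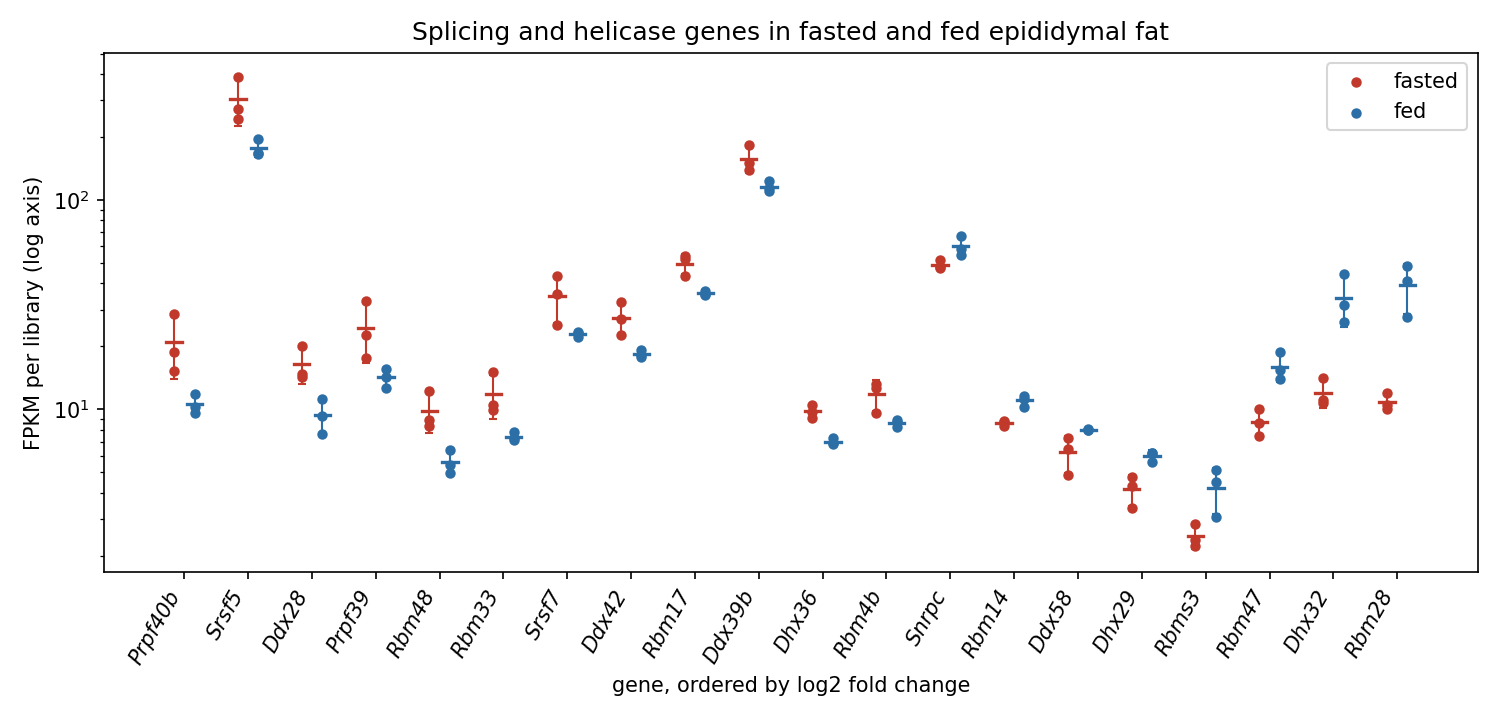
FPKM of the 20 genes (log axis) in the 3 fasted (red, left) and 3 fed (blue, right) libraries, ordered by log2 fold change. Points are libraries, short bars means and whiskers SD. In every gene the fasted and fed points are apart; Srsf5 is the most abundant and Rbms3 the least, and Rbm28 and Dhx32 at the right show the widest gaps.

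Both SR protein genes held rose (41.1% of all tested genes did). Srsf5 (ENSMUSG00000021134, chromosome 12, 80945504 to 80950507, plus strand, GRCm38) encodes SRp40, whose phosphorylation follows insulin in cultured rat muscle cells and which acts on protein kinase C beta splicing there. It had 389, 273 and 245 FPKM in the fasted libraries, against 196, 168 and 166 FPKM in the fed libraries. The lowest fasted library stood above the highest fed one, and fasted replicate 1 was well above the other fasted libraries. The means were 302 ± 76.1 FPKM in fasted and 177 ± 16.5 FPKM in fed tissue (SD, n = 3 each), a ratio of 1.71, and the log2 fold change was 0.75 ± 0.19 (SE; limma adjusted p = 0.00898). Srsf7 (chromosome 17, 80200080 to 80207307, minus strand) encodes an SR protein with a zinc knuckle that also serves in mRNA export. It had 43.3, 35.5 and 25.4 FPKM in fasted and 23.6, 23.3 and 22.2 FPKM in fed libraries, and its log2 fold change was 0.54 ± 0.19 (limma adjusted p = 0.0269). The fed libraries were close together, and fasted replicate 3 stood only just above them. The Srsf7 call was lost without fasted replicate 1 or 2 or fed replicate 2 or 3 (adjusted p up to 0.0766).

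Of 7 genes that act in splice site recognition or elsewhere in the spliceosome, 6 rose and 1, Snrpc, did not pass. This grouping was made with the values known. Rbm47, which fell, and Rbm4b, which rose, are also given below as splicing regulators but were counted with the other RNA-binding proteins. Rbm28, which fell furthest, was counted there as well, so the count of 6 in 7 depends on the grouping. Of all tested genes 41.1% rose and 49.4% fell. Prpf40b (chromosome 15, 99295087 to 99317018, plus strand) encodes a WW-domain relative of yeast Prp40, a U1 snRNP protein. It had the largest rise of the 20 genes, with 28.7, 18.9 and 15.3 FPKM in fasted and 11.9, 9.66 and 10.3 FPKM in fed libraries. Its ratio of means was 1.98 and its log2 fold change 0.88 ± 0.22 (limma adjusted p = 0.00929). As in Srsf5, fasted replicate 1 was the highest library and the other fasted libraries lay between it and the fed ones. Prpf39 (chromosome 12, 65036333 to 65063386, plus strand), whose mouse protein forms a homodimer related to a yeast U1 snRNP subunit, had 32.8, 22.8 and 17.5 FPKM in fasted and 15.7, 12.7 and 14.2 FPKM in fed libraries. Its log2 fold change was 0.70 ± 0.22 (limma adjusted p = 0.0184), and it was not called without fed replicate 2 (adjusted p = 0.0557). Exons of Prpf39 overlap Fkbp3 on the opposite strand, so reads in the shared stretch could not be told apart without strand. The length of that stretch was not measured.

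Snrpc encodes U1-C, a core U1 snRNP protein that steadies the pairing of U1 RNA with the 5′ splice site. It had 51.6, 48.0 and 47.2 FPKM in fasted and 54.9, 67.4 and 58.4 FPKM in fed libraries. The fasted values were all below the fed ones, but the log2 fold change of -0.29 ± 0.12 missed the threshold (limma adjusted p = 0.0502) and was -0.09 with median-ratio scaling. It was called without fed replicate 1 (adjusted p = 0.0456) and without the filter on low values (adjusted p = 0.0469). Of the 3 genes held for U1 or U1-associated proteins, 2 thus rose and 1 did not pass.

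The U2 side of the machinery was represented by Ddx42 and Rbm17. Ddx42, a DEAD-box protein that associates with the SF3b complex of the U2 snRNP, had 32.7, 27.0 and 22.6 FPKM in fasted and 19.2, 17.9 and 18.3 FPKM in fed libraries (log2 fold change 0.53 ± 0.15, limma adjusted p = 0.0135). Rbm17 encodes SPF45, which binds SF3b and can serve at 3′ splice sites of short introns in human cells. Its values were 53.8, 52.0 and 43.4 FPKM in fasted and 36.7, 35.8 and 35.3 FPKM in fed libraries, and its log2 fold change was 0.45 ± 0.12 (limma adjusted p = 0.0119). For both genes the fed libraries were tightly grouped and fasted replicate 3 was the lowest fasted library.

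Ddx39b encodes UAP56, a helicase that acts in U2 recruitment and hands spliced mRNA to the export machinery. It was the second most abundant of the 20 genes, with 182, 151 and 139 FPKM in fasted and 123, 114 and 110 FPKM in fed libraries, and its log2 fold change was 0.43 ± 0.13 (limma adjusted p = 0.0183). It was not called without fasted replicate 1 or fed replicate 3 (adjusted p up to 0.0584). Rbm48, a protein of the minor spliceosome that removes rare U12-type introns, had 12.2, 8.86 and 8.31 FPKM in fasted and 5.41, 4.97 and 6.43 FPKM in fed libraries (log2 fold change 0.70 ± 0.18, limma adjusted p = 0.00935). Exons of Rbm48 overlap annotated exons on the opposite strand, so its rise is uncertain.

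**Figure D2:**
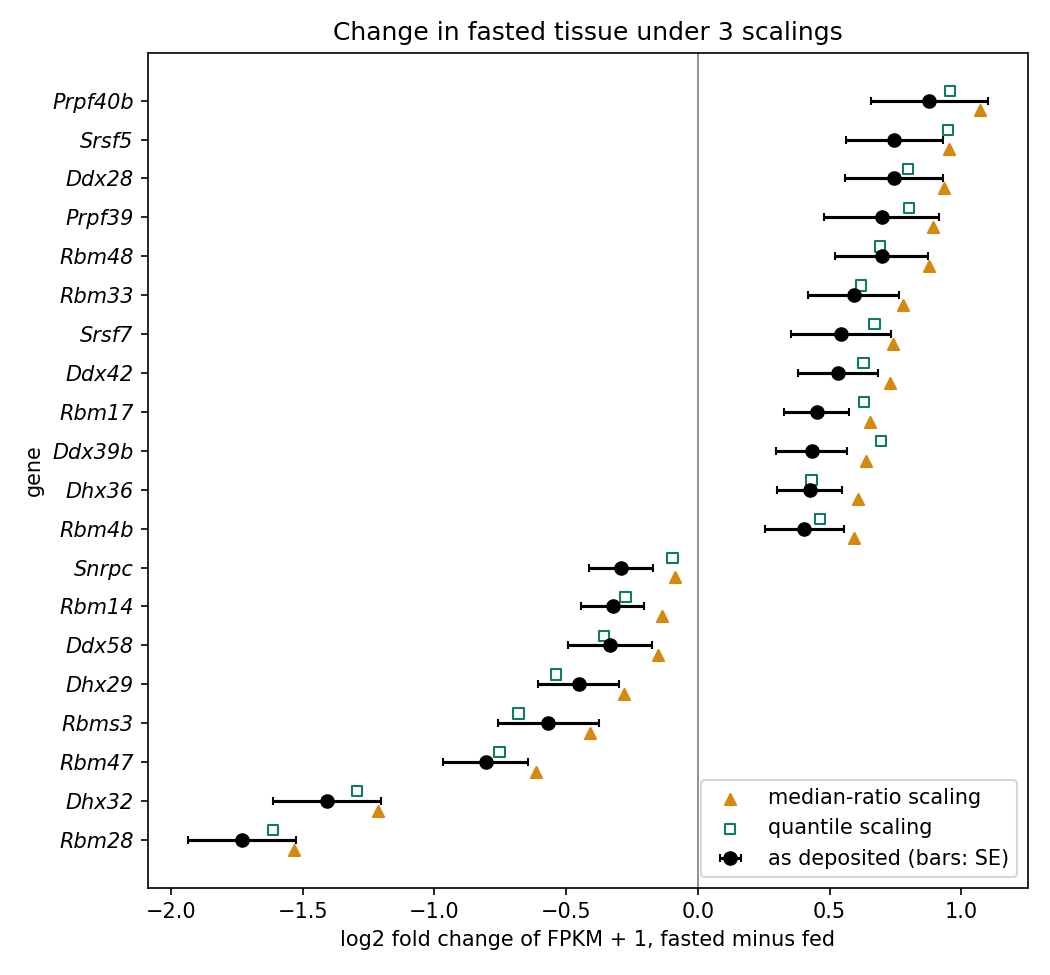
Log2 fold change of FPKM + 1, fasted minus fed, for the 20 genes as deposited (black, bars SE), with median-ratio scaling (triangles) and with quantile scaling (squares). The 12 rises stay right of 0 under all 3 scalings, while Snrpc, Rbm14 and Ddx58 move close to 0 with median-ratio scaling.

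The remaining RNA-binding proteins held split, and 2 of the 6 rose while 4 fell (41.1% and 49.4% of all tested genes). Rbm28 (ENSMUSG00000029701, chromosome 6, 29123576 to 29165006, minus strand) fell furthest of the 20 genes. It encodes a nucleolar protein related to yeast Nop4, which is needed for ribosome biogenesis. It had 11.9, 10.5 and 10.1 FPKM in fasted libraries, against 40.9, 48.6 and 27.7 FPKM in fed libraries. The fasted libraries were nearly level, and the lowest fed library was still far above them. The means were 10.8 ± 0.981 FPKM in fasted and 39.1 ± 10.6 FPKM in fed tissue (SD, n = 3 each), a ratio of 0.277, and the log2 fold change was -1.73 ± 0.20 (limma adjusted p = 0.000997). Over all annotated genes it was still called (adjusted p = 0.0184), and the change was -1.53 with median-ratio scaling.

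Rbm47, which supports APOBEC1 in C-to-U editing of apolipoprotein B mRNA and regulates alternative splicing, had 10.1, 7.50 and 8.62 FPKM in fasted and 15.4, 13.9 and 18.8 FPKM in fed libraries. Its log2 fold change was -0.81 ± 0.16 (limma adjusted p = 0.00489), and -0.62 with median-ratio scaling (adjusted p = 0.0134). Rbms3, a protein that binds single-stranded nucleic acid, was the least abundant of the 20 genes, at 2.85, 2.39 and 2.22 FPKM in fasted and 3.07, 5.11 and 4.50 FPKM in fed libraries. Fed replicate 1 lay just above the fasted libraries. The log2 fold change was -0.57 ± 0.19 (limma adjusted p = 0.0237), and -0.72 with a pseudocount of 0.1.

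Rbm14, a coactivator and paraspeckle protein gene, had 8.79, 8.35 and 8.68 FPKM in fasted and 11.6, 11.2 and 10.2 FPKM in fed libraries (log2 fold change -0.32 ± 0.12, limma adjusted p = 0.0338). Its change was -0.14 with median-ratio scaling (adjusted p = 0.304), and its exons overlap Gm21992 on the same strand. Rbms3 also missed the threshold with median-ratio scaling (adjusted p = 0.0647). Without single libraries, Rbms3 was not called when fasted replicate 2 or 3 or fed replicate 2 or 3 was left out (adjusted p up to 0.0712), and Rbm14 was called only without fed replicate 3 (adjusted p up to 0.105).

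The 2 rises among these proteins were Rbm33 and Rbm4b. Rbm33, a partner of the RNA demethylase ALKBH5 in human cells, had 15.1, 9.97 and 10.5 FPKM in fasted and 7.80, 7.12 and 7.32 FPKM in fed libraries (log2 fold change 0.59 ± 0.17, limma adjusted p = 0.0145). Fasted replicate 1 alone stood far above the fed libraries. Rbm4b, a regulator of alternative exons, had 13.3, 12.6 and 9.59 FPKM in fasted and 8.91, 8.22 and 8.72 FPKM in fed libraries (log2 fold change 0.40 ± 0.15, limma adjusted p = 0.0338). That call held only without fasted replicate 3 when single libraries were left out (adjusted p up to 0.108). Rbm4b has a close paralog, Rbm4, and is uncertain for that reason.

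Among 5 helicases that work outside splicing or whose role is less clear, 2 rose, 2 fell and 1 did not pass. For all tested genes the shares were 41.1% higher and 49.4% lower. Dhx32 (ENSMUSG00000030986, chromosome 7, 133720942 to 133782726, minus strand) had 11.1, 10.8 and 14.1 FPKM in fasted libraries, against 31.6, 44.3 and 26.2 FPKM in fed libraries. The groups were far apart. The means were 12.0 ± 1.86 FPKM in fasted and 34.0 ± 9.26 FPKM in fed tissue (SD, n = 3 each), a ratio of 0.352, and the log2 fold change was -1.41 ± 0.20 (limma adjusted p = 0.00191). It passed over all annotated genes as well (adjusted p = 0.0353). Exons of Dhx32 overlap Bccip on the opposite strand. In all, 8 of the 20 genes shared exon sequence with other annotated genes, among them also Ddx39b, Rbm47 and Rbm4b, and their values are uncertain to that extent.

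Dhx29, a helicase that helps ribosomes scan structured mRNA leaders, had 3.37, 4.32 and 4.74 FPKM in fasted and 6.22, 5.58 and 6.20 FPKM in fed libraries (log2 fold change -0.45 ± 0.15, limma adjusted p = 0.0244). It missed the threshold with median-ratio scaling (-0.28, adjusted p = 0.157) and without fasted replicate 1 or 2 or fed replicate 1 or 3 (adjusted p up to 0.0646). Ddx58 encodes RIG-I, the cytosolic sensor of viral RNA. It had 7.34, 4.86 and 6.48 FPKM in fasted and 8.08, 8.0 and 7.95 FPKM in fed libraries, and its log2 fold change of -0.33 ± 0.16 did not pass (limma adjusted p = 0.0759), except without fasted replicate 1 (adjusted p = 0.0405). The fed libraries of Ddx58 were almost identical, and fasted replicate 1 lay close to them.

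Ddx28, an intronless gene for a helicase of mitochondrial ribosome assembly, had 14.8, 20.2 and 14.3 FPKM in fasted and 11.2, 7.62 and 9.32 FPKM in fed libraries. Its log2 fold change of 0.74 ± 0.19 (limma adjusted p = 0.00926) was the third largest rise of the 20 genes. It was the 1 rising gene in which fasted replicate 2 rather than replicate 1 was highest, and it overlaps an exon of Dus2 on the opposite strand. Dhx36, which unwinds G-quadruplexes, four-stranded structures of guanine-rich RNA and DNA, had 10.5, 9.76 and 9.09 FPKM in fasted and 7.33, 6.90 and 6.84 FPKM in fed libraries (log2 fold change 0.42 ± 0.12, limma adjusted p = 0.0148). Both groups were narrow.

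**Figure D3:**
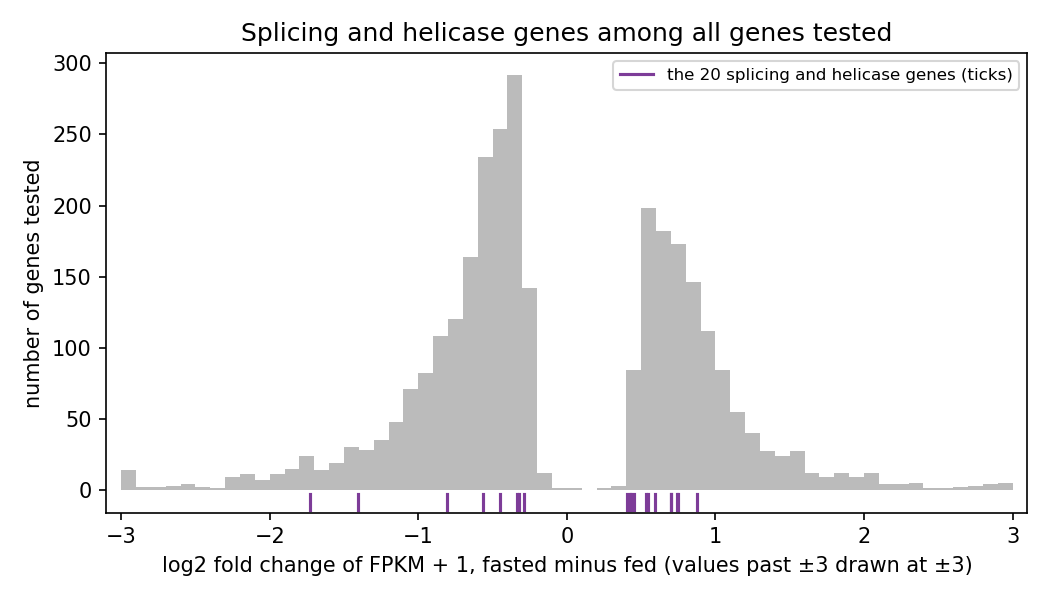
Log2 fold changes (FPKM + 1, fasted minus fed) of all 2999 genes tested as a histogram, with the 20 splicing and helicase genes as ticks below. The nearly empty stretch around 0 comes with the genes held, and the 12 rising ticks run from 0.40 to 0.88, where the median of all rising genes is 0.79.

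The smallest rises of the splicing genes stand near the edge of that gap. Among genes held with a positive log2 ratio of group means, the lowest percentile ended at 0.45, and the smallest rise of the 20 genes on that scale was 0.44, that of Ddx39b. Family members with smaller rises could hardly be among the genes held. The edge for falls lay nearer to 0, at -0.21.

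The fasted libraries did not contribute equally. In 11 of the 12 genes that rose, fasted replicate 1 was the highest library, and this was so for 62.3% of all 1232 rising genes. Relative to the fed mean, the median of the 12 genes was 0.84 in fasted replicate 1, 0.56 in fasted replicate 2 and 0.31 in fasted replicate 3 on the log2 scale. All 3 fasted libraries were above all fed libraries in each of the 12. Without fasted replicate 1, 9 of the 12 were called, and Srsf7, Ddx39b and Rbm4b were not; without fed replicate 2 or fed replicate 3, 9 were called as well. The part of this library in the rises beyond these values was not tested.

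**Figure D4:**
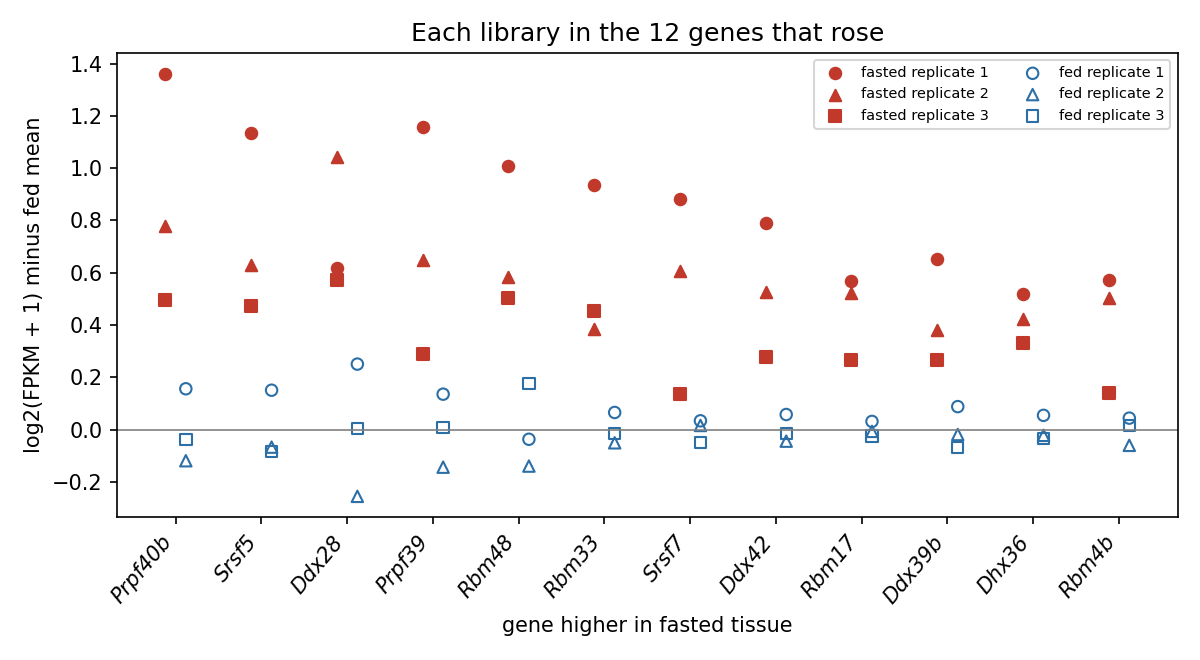
Each library's log2(FPKM + 1) minus the fed mean in the 12 genes that rose, with fasted libraries filled red on the left and fed libraries open blue on the right of each gene. Filled circles, fasted replicate 1, are on top in 11 of 12 genes, and every filled symbol is above the open ones.

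The annotation gives the 20 genes a median of 6 transcripts, against 5 for all protein-coding genes held. The median number with a retained intron was 1.5, against 1.0. At least 1 transcript with a retained intron was annotated for 15 of the 20 (75.0%), against 57.1% of the 3152 protein-coding genes held, and at least 1 transcript marked for nonsense-mediated decay for 7 (35.0%), against 25.9%. The median gene had 28 distinct annotated exons, against 18, and Prpf40b and Prpf39 had 6 retained-intron transcripts each. FPKM was given per gene, so productive and unproductive forms were not separated, and a rise in FPKM need not be a rise in protein-coding mRNA.

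Other RNA processing genes were taken from 6 lists of 193 genes outside the named families, of which 23 were held; 14 rose (41.1% of all tested genes did), 8 fell (49.4% of all tested genes) and 1 did not pass. Calls of falls varied with the setting: 1 of the 8, Thoc6, passed with median-ratio scaling and 5 with quantile scaling. Without fasted replicate 2, 1 gene was called lower, and 5 to 7 were when any other library was left out. The 8 log2 fold changes without fasted replicate 2 ran from -0.31 (Lsm3) to -0.68 (Thoc6), against -0.32 and -0.61 with all libraries. Adjusted over all protein-coding genes, 8 rose and 0 fell by limma (8 of the falls had an unadjusted p under 0.05). With the adjustment over all annotated genes, 0 of the 23 rose and 0 fell by limma. Among splicing regulators and kinases, all 6 held of 54 listed rose (median of 0.69 on the log2 scale), 4 to 6 when single libraries were left out, and 2, Ptbp3 and Cirbp, when adjusted over all protein-coding genes. Cirbp, the cold-inducible RNA-binding protein gene, had 80.7, 51.0 and 56.6 FPKM in fasted and 30.1, 14.6 and 24.9 FPKM in fed libraries (log2 fold change 1.43 ± 0.28, limma adjusted p = 0.00441). Clk4, a kinase that phosphorylates SR proteins, was 74.8, 51.1 and 32.1 FPKM in fasted and 30.4, 26.9 and 27.5 FPKM in fed libraries (0.80 ± 0.27, limma adjusted p = 0.0251). In Clk4, as in Srsf7, fasted replicate 3 was only just above the fed libraries. Without fasted replicate 1 the change of Clk4 was 0.51 and not called (adjusted p = 0.0611), and it was not called without fasted replicate 2 or fed replicate 2 or 3 either (adjusted p up to 0.0655). Taf15, an RNA-binding protein gene of the FET family (0.67 ± 0.21, limma adjusted p = 0.0195), was not called without fasted replicate 1 or 2 or fed replicate 2 (adjusted p up to 0.0588). Ptbp3, a polypyrimidine tract-binding splicing repressor (0.70 ± 0.13), and Matr3, a nuclear matrix protein (0.53 ± 0.13), also rose.

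In the spliceosome core outside the named families, 4 of 7 held of 60 listed rose and 3 fell (median 0.54). Sf1, which binds the branch point before the U2 snRNP, had 133, 122 and 93.9 FPKM in fasted and 70.2, 55.3 and 67.7 FPKM in fed libraries (log2 fold change 0.84 ± 0.17, limma adjusted p = 0.00477). U2af1, the subunit of U2AF that reads the 3′ splice site, rose by 0.61 ± 0.13, and Snrnp48, a protein of the minor spliceosome, by 0.85 ± 0.15. U2af1l4, Lsm3 and Ppil1 fell, by 0.40, 0.32 and 0.68 on the log2 scale, and with median-ratio scaling none of these 3 passed (adjusted p of 0.133, 0.274 and 0.0644).

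Of cleavage and polyadenylation genes, 3 of 4 held of 20 listed rose, Clp1 (0.74 ± 0.14), Pcf11 (0.64 ± 0.14) and Rbbp6 (0.73 ± 0.17), and Wdr33 did not pass (0.26 ± 0.12, limma adjusted p = 0.0658; 0.45 with median-ratio scaling, adjusted p = 0.00697). Of 3 other RNA helicases held of 20 listed, the translation initiation factor gene Eif4a2 rose (0.68 ± 0.15), and Skiv2l (-0.37 ± 0.11) and Znfx1 (-0.45 ± 0.16) fell, the falls not passing with median-ratio scaling (adjusted p = 0.163 and 0.206). Both snRNP assembly genes held of 17 fell, Gemin7 (-0.50 ± 0.15) and Ncbp2 (-0.41 ± 0.13), and neither passed with median-ratio scaling (adjusted p = 0.0662 and 0.152). The 1 gene held of 26 for mRNA export and decay, Thoc6, fell (-0.61 ± 0.16).

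**Figure D5:**
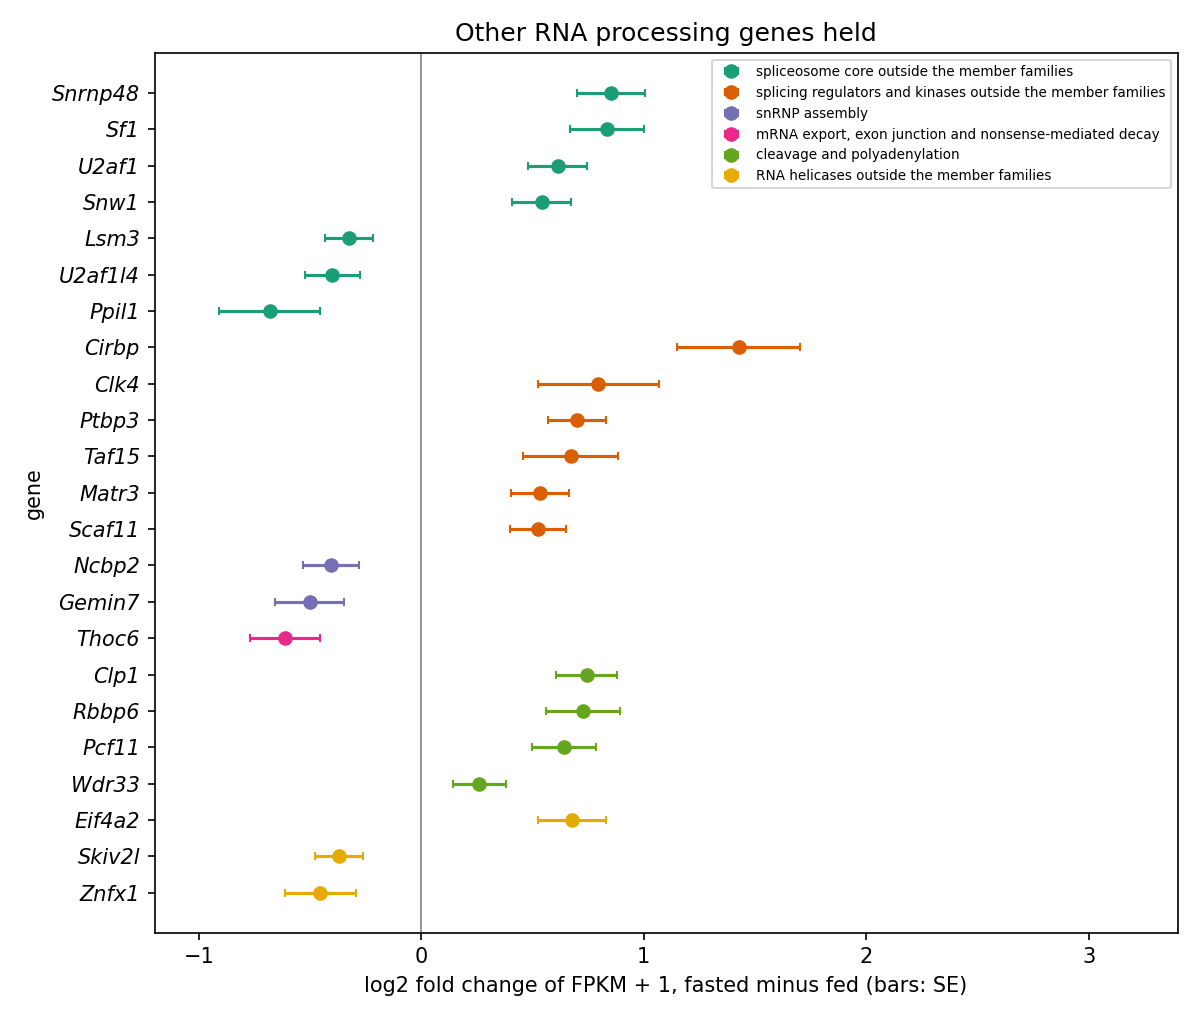
Log2 fold change of FPKM + 1, fasted minus fed, with SE, for the 23 other RNA processing genes held, coloured by list. All 6 splicing regulators and kinases lie right of 0, with Cirbp furthest, while both snRNP assembly genes and Thoc6 lie left of 0.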

How the data were processed

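Epididymal white adipose tissue of 3 fasted and 3 fed mice was sequenced, 1 library per mouse, and libraries were grouped by the treatment label. Replicate numbers only name the libraries, in order of accession, and pair no mice. Per the file headers, the deposited values are FPKM with at most 2 decimals, made by the authors. RSEM and the builds mm10 and GRCm38.p6 are named per the submitters' processing notes, whereas tool versions, the aligner and the annotation are not stated there. Depth is unknown, and strand was not recorded, so overlapping genes could not be separated where they share sequence.

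Of 3162 gene identifiers, 3158 matched the GRCm38 annotation and 4 did not. How the genes held were chosen is not stated in the labels. Because of that choice the adjusted p-values are no false discovery rate over the whole genome. The whole table was fitted with limma 3.58.1 in R 4.3.3 (variance trend on) after adding 1 to each FPKM and taking log2. It covered the 2999 genes whose mean reached 1 FPKM, a filter all 20 genes passed. P-values were two-sided and Benjamini-Hochberg adjusted over the 2999, with a threshold of 0.05. Adding 1 to each FPKM understates changes of low genes.

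The genes and lists were chosen with earlier results of these data known. All 20 genes are named, and from each other list up to 3 called genes with the smallest p, with further ones (Clk4, Taf15, the spliceosome falls, Wdr33 and Znfx1) named after their values were seen. Values of some genes are not reported here. Alternatives were a pseudocount of 0.1, no filter on low values, median-ratio and quantile scaling and leaving out each library. Adjustment over all 21951 protein-coding or all 55450 annotated genes was added after the data were seen.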

Additional observations from a re-analysis of the deposited data

How the results depend on the processing

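No paired analysis was possible because the libraries came from different mice and the labels give no replicate numbers (those used here only name libraries). The count of the 20 genes that rose was 12 with a pseudocount of 0.1, without the filter and with either scaling, and 9 to 12 when single libraries were left out. The count that fell was 6 as deposited, 7 without the filter, 3 with median-ratio scaling (Rbms3, Dhx29 and Rbm14 no longer passed) and 3 to 5 across libraries left out, with 3 without fasted replicate 2. The median log2 fold change of the 20 was 0.43, moved to 0.62 with median-ratio scaling and was 0.35 to 0.53 with single libraries left out. None of the 20 changed sign under any of these settings. Of all tested genes, 1232 rose and 1482 fell, and 787 fell with median-ratio scaling. Adjusted over all protein-coding genes, 0 of the 20 rose (unadjusted p under 0.05 for 12) and 3 fell, and 557 of all tested genes rose and 495 fell by limma. Adjusted over all annotated genes, 0 of the 20 rose and 2 fell, and 172 of all rose and 192 fell. Fewer calls there follow from the larger number of genes in the adjustment; for the other settings the cause was not tested. Depth is unknown, so no counting error could be given.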
